A study of Mus musculus with 4 samples.

Results

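The genes described are 9 transcription factors of the surface ectoderm, the embryonic sheet that gives rise to epidermis and cranial placodes, namely Trp63, Grhl1, Grhl2, Grhl3, Tfap2c, Klf5, Ovol1, Gata3 and Elf3. They were matched by symbol in the count table, where all 9 were found among 54532 gene IDs, and all 9 were among the 19207 genes with enough counts to be tested. The libraries hold RNA from cranial neural tubes microdissected from mouse embryos at embryonic day 10.5, with 2 libraries per group. Whether each library came from its own embryo is not given in the sources used here, so p-values measure the spread between these libraries. DCKO embryos carried floxed alleles of both copies of Lats1 and of Lats2 (Lats1 flox/flox; Lats2 flox/flox) together with the E2f1 Tg(Wnt1-cre)2Sor/+ transgene, and Control embryos lacked the transgene. The labels do not say whether Control embryos carried floxed alleles. Wnt1 sequences drive Cre in this line mainly in dorsal neural tube and in the neural crest that leaves it, so only some of the dissected cells could lose the Hippo pathway kinases LATS1 and LATS2.

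Library totals ranged from 41798361 to 55137810 counts. Lats1 stood at 44.2 CPM (counts scaled to a common effective library total) in Control 1, 65.6 in Control 2, 30.0 in DCKO 1 and 29.7 in DCKO 2. Its log2 fold change was -0.88 (SE 0.23) and did not pass in edgeR (adjusted p 0.0538). For Lats2 the same libraries gave 26.7, 13.3, 21.2 and 35.3 CPM, and the groups overlapped. The floxed exons are not given in the sources used here, so these gene counts do not check the deletion. Genes at the ribosomal RNA cluster of chromosome 17 took 12.4% to 13.2% of Control counts and 24.7% to 30.3% of DCKO counts. Counts of Xist, transcribed from the inactive X, were 10837 and 7786 for Control against 8 and 22 for DCKO, so embryo sex and genotype cannot be told apart.

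The surface ectoderm lies beside the neural folds and covers the neural tube once the folds have fused. p63, the product of Trp63, sits at the top of the epidermal programme and sustains the proliferating layer of stratified epithelia. The grainyhead-like proteins GRHL1, GRHL2 and GRHL3 switch on genes of epithelial junctions and barriers, and mouse embryos without Grhl2 or Grhl3 fail to close the neural tube. AP-2 gamma (Tfap2c), KLF5, OVOL1, GATA3 and ELF3 act with or after them in ectoderm, epidermis or other epithelia, and several of them also work in trophoblast.

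In DCKO, 3 of the 9 factors rose: Trp63, Klf5 and Grhl3. None of the 9 passed the test as lower, and 6 of the 9 had an unadjusted p under 0.05, as did 6896 of all 19207 tested genes. Trp63 and Ovol1 reached the count filter only through their DCKO libraries, so they could not have been called lower. Of all tested genes, 8.93% were called higher and 8.11% lower (edgeR quasi-likelihood test, Benjamini-Hochberg adjusted p under 0.05 over all tested genes). Both DCKO libraries lay above both Control libraries in CPM for 8 of the 9 factors, against 33.6% of tested genes, and the exception was Tfap2c. In the deposited TPM (transcript abundance scaled by length and library) this held for 5 of the 9, namely Trp63, Grhl2, Grhl3, Klf5 and Ovol1, against 23.7% of the same genes. The median log2 fold change was 1.81 over the 9 factors and 0.03 over all tested genes. With scaling to library totals, which moved the median of all genes by -0.35, 2 factors rose among 6.35% of all genes called higher (1219 higher and 3744 lower, in place of 1716 and 1558). The other settings named in the results below called 5.21% of genes higher without a filter, 13.5% in DESeq2, 6.81% on log2(TPM + 1) with a mean TPM of at least 1 and 0% without that filter, and 5.22% with the replicate number as a block. Leaving out Control 1, Control 2, DCKO 1 or DCKO 2 gave 1.20%, 0.761%, 10.9% and 12.8%. The factors differed greatly in the size of their difference, from a log2 fold change of 8.85 for Trp63 to 0.01 for Tfap2c. Because the tissue was sequenced in bulk, more cells of a type and more RNA per cell cannot be told apart.

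**Figure D1:**
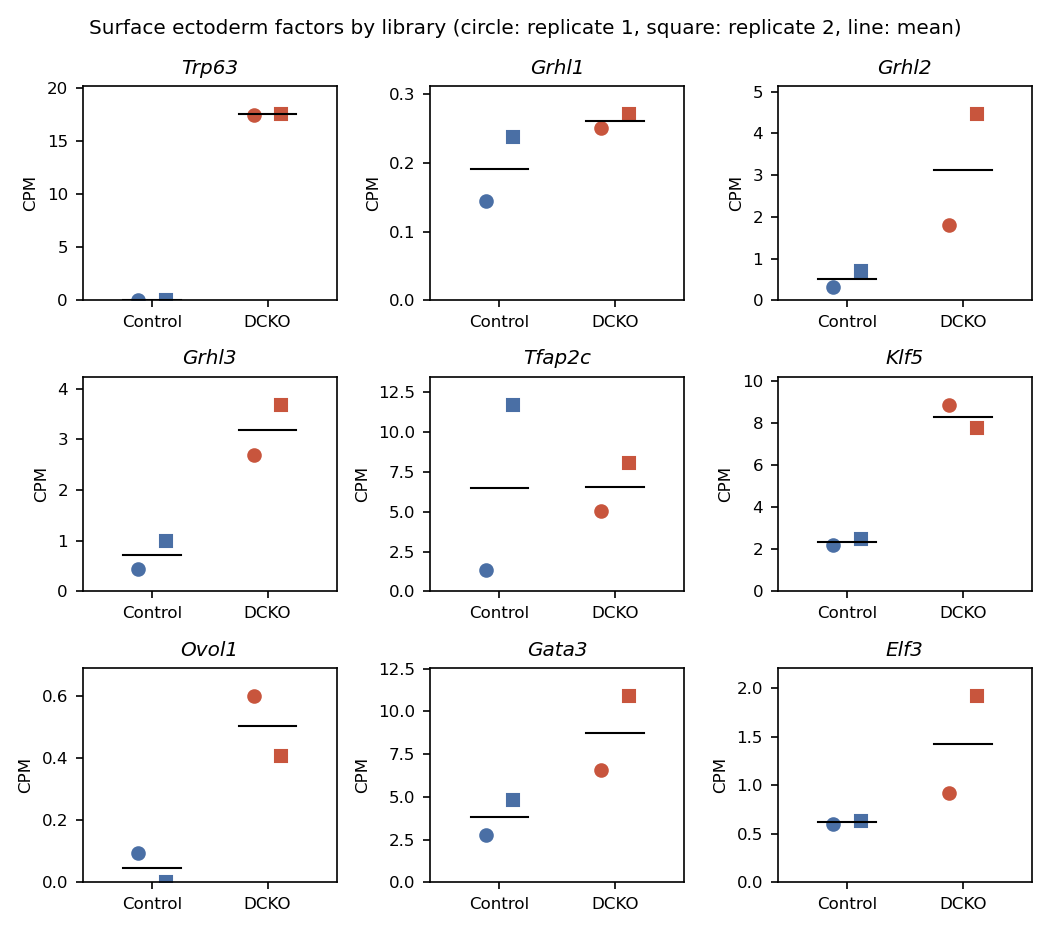
CPM of each of the 9 factors in every library, with Control in blue and DCKO in red, replicate 1 as a circle, replicate 2 as a square and the group mean as a line; each vertical axis starts at 0. Trp63 went from 0.0319 and 0.0395 CPM in Control to 17.5 and 17.6 in DCKO, while the Control libraries of Tfap2c, at 1.34 and 11.7, enclosed both DCKO libraries.

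Trp63 (ENSMUSG00000022510) lies on chromosome 16, from 25683763 to 25892102 on the plus strand of GRCm38. Each Control library held 2 of its counts, against 699 for DCKO 1 and 649 for DCKO 2. In CPM these were 0.0319 and 0.0395 in Control and 17.5 and 17.6 in DCKO. Control was nearly empty, and the DCKO pair differed by less than for almost any other gene, since 98.4% of tested genes had a larger gap between the DCKO libraries. The log2 fold change was 8.85 (SE 0.35, edgeR adjusted p 0.00280), the 28th highest of all tested genes. Control counts were under the floor of 3 counts per library, so the size is better given as the ratio of pooled counts, 496, with a 95% counting interval of 193 to 1822. Trp63 passed without any single library, with edgeR adjusted p from 0.000370 to 0.0222.

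GENCODE M21 annotates 8 protein-coding transcripts of Trp63. Of these, 4 start at the upstream end of the gene and 4 start 118153 bases further on, at 25801916. The upstream start gives the forms with a full transactivation domain, called TAp63, and the internal start gives the deltaNp63 forms, which dominate in epidermis. The counts are per gene, so they do not separate these forms. The 2 other gene models that overlap Trp63, Gm24928 and Gm27005, had 0 counts in all 4 libraries.

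Among the grainyhead-like genes, Grhl3 rose, Grhl2 had a higher value that did not pass, and Grhl1 had a small one that did not pass. Grhl3 (ENSMUSG00000037188, chromosome 4, 135541888 to 135573630, minus strand) is needed for closure of the spinal neural tube and for the epidermal barrier in mice. Control 1 and 2 held 28 and 50 of its counts, and DCKO 1 and 2 held 108 and 136. In CPM, Control had 0.447 and 0.988 and DCKO had 2.70 and 3.68, so the lower DCKO library was still above both Control libraries. Its log2 fold change was 2.15 (SE 0.53, edgeR adjusted p 0.0474), just under the threshold. On log2(TPM + 1) with a mean TPM of at least 1, Grhl3 did not pass in limma (0.89, adjusted p 0.0717). The call was lost when Control 1 (1.68, adjusted p 0.231), Control 2 (2.80, 0.115) or DCKO 2 (1.92, 0.0524) was left out, with scaling to library totals (1.81, 0.0541), and with the replicate number as a block (2.23, 0.0543).

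Grhl2 (ENSMUSG00000022286, chromosome 15, 37233036 to 37363569, plus strand), which maintains E-cadherin and claudin genes in epithelia, was counted 20 and 36 times in Control, against 72 and 165 times in DCKO. These corresponded to 0.319 and 0.711 CPM for Control against 1.80 and 4.47 for DCKO. The groups did not overlap, but the second library of each pair was well above the first, 2.23-fold in Control and 2.48-fold in DCKO. At 2.61 (SE 0.67), its log2 fold change narrowly failed to pass in edgeR (adjusted p 0.0523). It passed in DESeq2 (2.60, adjusted p 0.00303), in edgeR without a filter on low counts (2.58, 0.0416), without DCKO 1 (3.12, 0.0109), and with the replicate number as a block (2.57, 0.0402). Without DCKO 2 it was 1.81 (0.0741).

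Grhl1 (ENSMUSG00000020656, chromosome 12, 24572283 to 24617391, plus strand), which acts later in hair follicle and epidermal adhesion, was near the limit of detection, with 9 and 12 counts for Control and 10 and 10 for DCKO. Its CPM was 0.144 and 0.237 in Control against 0.250 and 0.271 in DCKO, a narrow gap between groups at very low counts. Its log2 fold change was 0.45 (SE 0.65, edgeR adjusted p 0.655). The pooled ratio of 1.40 had a 95% counting interval of 0.721 to 2.72, so counting error alone leaves the direction unresolved.

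Promoter windows from 250 bases before to 50 after a start site, from RefSeq on GRCm38.p6, matched 4 of the 9 genes: Grhl1, with 2 windows, and Grhl3, Gata3 and Elf3, with 1 each. The windows of Grhl3 (chr4:135573583-135573882, minus strand) and of the upstream start of Grhl1 (chr12:24572037-24572336, plus strand) are shown as those of a factor that rose and one that did not pass in the same family. The window of Elf3 (chr1:135258423-135258722, minus strand) is shown because it alone of the matched windows holds the letters bound by the TEAD partners of YAP. Capitals mark matches to the searched motifs, on either strand, with a palindromic match counted once. The TEAD core was searched as GGAATG. Letters for grainyhead factors were AACNNGTT, for AP-2 factors GCCNNNGGC and for KLF factors GGGTGNGG. GATA, AP-1 and p63 motifs were searched too.
Grhl3: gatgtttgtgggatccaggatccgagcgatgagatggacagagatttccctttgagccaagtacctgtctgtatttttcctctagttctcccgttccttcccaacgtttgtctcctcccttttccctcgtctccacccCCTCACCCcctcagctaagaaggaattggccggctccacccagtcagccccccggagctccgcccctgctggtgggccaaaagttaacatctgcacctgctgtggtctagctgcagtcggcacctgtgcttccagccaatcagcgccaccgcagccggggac
Grhl1: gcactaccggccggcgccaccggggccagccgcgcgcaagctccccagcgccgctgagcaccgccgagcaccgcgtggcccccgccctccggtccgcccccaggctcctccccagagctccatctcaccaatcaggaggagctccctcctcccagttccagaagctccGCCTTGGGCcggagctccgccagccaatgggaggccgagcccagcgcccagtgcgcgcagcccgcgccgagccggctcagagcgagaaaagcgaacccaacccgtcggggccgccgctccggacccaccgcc
Elf3: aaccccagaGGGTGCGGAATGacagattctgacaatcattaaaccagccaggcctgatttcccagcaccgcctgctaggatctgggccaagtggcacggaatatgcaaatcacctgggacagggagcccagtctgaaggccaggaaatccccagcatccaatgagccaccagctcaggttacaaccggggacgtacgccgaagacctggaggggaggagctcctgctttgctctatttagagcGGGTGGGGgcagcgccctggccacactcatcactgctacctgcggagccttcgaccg

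The Grhl3 window held 1 KLF match and the upstream Grhl1 window 1 AP-2 match. The Elf3 window held 2 KLF matches, of which 1 overlaps its TEAD core match by a pair of bases. The Gata3 window (chr2:9878551-9878850, minus strand) held 3 AP-2 matches and 1 KLF match, and the internal Grhl1 window held none of the motifs. Of all 32851 windows in the table, 14.7% held the TEAD core, 16.6% the AP-2 letters, 16.6% the KLF letters and 4.2% the grainyhead letters. The GATA motif, searched as AGATAA, was in 11.2% of them. The AP-1 motif, searched as TGANTCA, was in 7.81%, and a p63 site in 0.712%. Such matches are common and describe these letters only.

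Of the zinc finger factors, Klf5 rose with close replicates, and Ovol1 and Gata3 did not pass. Klf5 (ENSMUSG00000005148, chromosome 14, 99298691 to 99315036, plus strand) drives proliferation in epithelia and is known as a partner of YAP in some of them. Its counts were 139 and 127 for Control and 355 and 287 for DCKO. In CPM these were 2.22 and 2.51 in Control and 8.87 and 7.77 in DCKO, well apart compared with the gaps within each pair. The log2 fold change was 1.81 (SE 0.28, edgeR adjusted p 0.0179). The value hardly moved when a Control was left out, at 1.72 and 1.87, but neither fit, with a lone Control assumed to vary like DCKO, gave a pass (adjusted p 0.134 and 0.118).

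Ovol1 (ENSMUSG00000024922, chromosome 19, 5549136 to 5560646, minus strand), a repressor that holds epithelial cells back from a mesenchymal state and takes part in epidermal differentiation, was at the edge of detection. Control 1 held 6 counts and Control 2 none (0), and DCKO 1 and 2 held 24 and 15. All 4 values were low, and DCKO was above Control in both libraries. The pooled ratio was 9.56 with a 95% counting interval of 4.02 to 27.6. The fitted log2 fold change was 3.24 (SE 1.13, edgeR adjusted p 0.103). Its counterpart Ovol2 had 0 counts in 3 libraries and 13 in DCKO 2. Gm31166, which overlaps Ovol1 on the opposite strand, had 6 counts in Control 2 and 0 in the other libraries. No count is given for AC126029.1, which also overlaps Ovol1 on the opposite strand.

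Gata3 (ENSMUSG00000015619, chromosome 2, 9857078 to 9890034, minus strand) is expressed in epidermis, in the otic placode, and also in a class of inhibitory neurons. Its counts were 175 and 245 for Control and 263 and 403 for DCKO, or 2.79 and 4.84 CPM against 6.57 and 10.9. In CPM the groups did not overlap, but in TPM the lower DCKO library, at 2.86, lay between the Control libraries at 2.47 and 3.11. Its log2 fold change, 1.20 (SE 0.41), did not pass in edgeR (adjusted p 0.101) and passed in DESeq2 (1.19, adjusted p 0.0366) and without DCKO 1 (1.51, 0.0331). Without DCKO 2 it was 0.78 (0.186). Genes overlapping Gata3 held at most 15 counts in a library.

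Elf3 (ENSMUSG00000003051, chromosome 1, 135253575 to 135258568, minus strand), an ETS family factor of differentiating epithelia, was counted 38 and 32 times in Control, against 37 and 71 times in DCKO. Its CPM was 0.607 and 0.632 in Control against 0.925 and 1.92 in DCKO, so most of the difference lay in DCKO 2. Its log2 fold change was 1.19 (SE 0.53, edgeR adjusted p 0.171), 1.62 without DCKO 1 (adjusted p 0.0473) and 0.57 without DCKO 2 (0.450). Elf3 lies wholly within Gm26642 on the opposite strand, which had 22, 30, 2 and 18 counts in Control 1, Control 2, DCKO 1 and DCKO 2. Whether strand was used in counting is not given in the sources used here, so reads of these overlapping genes may not be told apart.

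Tfap2c (ENSMUSG00000028640, chromosome 2, 172549593 to 172558622, plus strand) did not separate the groups. Its counts were 84 and 592 for Control and 203 and 297 for DCKO, or 1.34 and 11.7 CPM against 5.07 and 8.04. The Control libraries thus differed 8.72-fold, and 0.479% of tested genes had a larger gap between them. The log2 fold change was 0.01 (SE 0.92, edgeR adjusted p 0.995), and it was -0.33 with scaling to library totals and -0.012 without a filter. It was 2.25 (adjusted p 0.122) without Control 2 and -0.84 (0.367) without Control 1. In the same Control 2 library, 12 forebrain genes chosen after values were seen summed to 171 CPM, against 22.1 in Control 1, 12.7 in DCKO 1 and 32.7 in DCKO 2. Among them, Fezf2, a factor of the forebrain, had 2 counts in Control 1 and 696 in Control 2, and Emx2, of the dorsal forebrain, 132 and 1103. Their part in the level of Tfap2c was not tested.

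**Figure D2:**
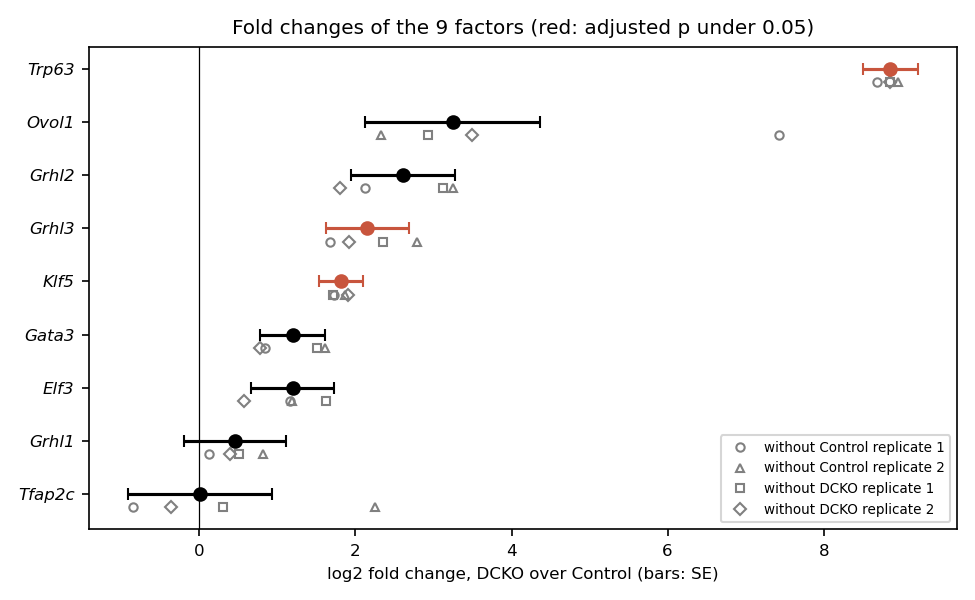
Log2 fold change of DCKO over Control for the 9 factors on the horizontal axis, with bars of 1 SE, in red for the 3 factors that passed; grey open symbols below each give the value with a single library left out. Trp63 stayed between 8.68 and 8.95, while Tfap2c ranged from -0.84 to 2.25; the value of 7.43 for Ovol1 without Control 1 is set against a lone Control library at 0 counts and is no measured fold.

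Levels between genes can be compared in TPM. In Control the order was Tfap2c (3.61 ± 3.86 TPM, SD, n = 2), Gata3 (2.79 ± 0.452), Klf5 (1.19 ± 0.0598), Elf3 (0.568 ± 0.0603), Grhl3 (0.420 ± 0.171), Grhl2 (0.174 ± 0.0787), Grhl1 (0.0922 ± 0.0216), Ovol1 (0.0308 ± 0.0435) and Trp63 (0.0111 ± 0.000103). Neighbours whose libraries overlapped in this order were Tfap2c and Gata3, Elf3 and Grhl3, and Ovol1 and Trp63. Trp63 was thus last in Control and above 0.505% of tested genes in level. In DCKO it was first, at 6.04 ± 0.509 TPM and above 51.0% of tested genes. Gata3 (4.52 ± 2.35 TPM), Klf5 (3.56 ± 0.0587) and Tfap2c (3.48 ± 1.72) came next with overlapping libraries, and Gata3 also overlapped Trp63. Grhl2 (1.77 ± 1.82 TPM), whose libraries reached those of Tfap2c, Grhl3 (1.66 ± 0.552) and Elf3 (0.991 ± 0.594) overlapped as well. Ovol1 (0.243 ± 0.0396 TPM) and Grhl1 (0.108 ± 0.0225) stood apart at the bottom. 

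Counts and TPM gave different pictures of Grhl2 within DCKO. DCKO 2 was 2.48-fold above DCKO 1 in CPM but 6.34-fold above it in TPM (3.06 against 0.483). The TPM given per count of Grhl2, scaled to the library median, was 0.484, 0.511 and 0.482 in Control 1, Control 2 and DCKO 1 and 1.06 in DCKO 2. A change between the DCKO libraries of this size or more was seen in 0.890% of genes. Annotated protein-coding transcripts of Grhl2 range in spliced length from 632 to 4947 bases, and how the authors divided reads among them is not given in the sources used here. For the other 8 factors the TPM per count of DCKO 2 over DCKO 1 was between 0.963 and 1.12.

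**Figure D3:**
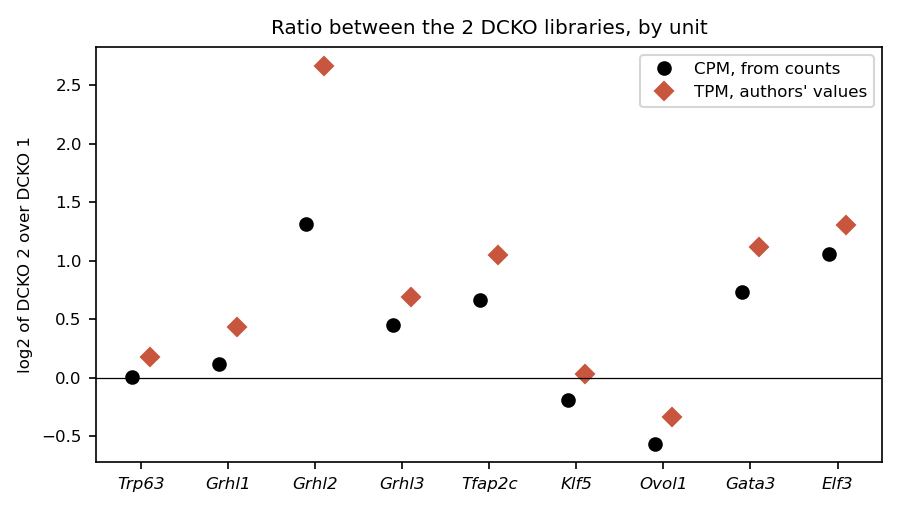
Log2 ratio of DCKO 2 over DCKO 1 for each factor, from counts as CPM (black circles) and from the deposited TPM (red diamonds). Grhl2 is 2.48-fold higher in DCKO 2 in CPM and 6.34-fold higher in TPM, the widest gap between the units among the 9.

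Other transcription factors of surface ectoderm, epidermis and placodes also tended to be higher. Of 18 such genes, 13 were tested, 8 rose and none fell, with a median log2 fold change of 1.45. Tfap2a, the AP-2 gene of ectoderm and neural crest, rose from 3.81 ± 0.897 to 19.4 ± 5.19 CPM (SD, n = 2, log2 fold change 2.35, SE 0.31, edgeR adjusted p 0.0135). Dlx3, of epidermis and placodes, rose by 4.15 (SE 0.65, adjusted p 0.0180), with 149 counts in DCKO 1 and 417 in DCKO 2. Without Control 1 or without Control 2, 0 of 14 tested genes of this list passed in edgeR (11 and 10 at an unadjusted p under 0.05), with medians of 1.80 and 2.09, while 11 rose and 1 fell in DESeq2 on all libraries.

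The closest profile over the 4 libraries was that of Tfap2a. Log2 CPM of each gene was centred on its own mean, and the mean profile of the 9 factors was -1.42, -0.84, 0.94 and 1.33 in Control 1, Control 2, DCKO 1 and DCKO 2. Tfap2a lay at a root mean square distance of 0.07 log2 units from it. The next 5 genes were Slc1a6, a glutamate transporter, Pdlim2, which binds actin filaments, Met, the receptor of hepatocyte growth factor, Tmbim1, a membrane protein, and Ddit3, a stress response factor, at 0.11 to 0.16. With 4 libraries in 2 groups, this likeness mainly restates the group difference and the higher value of the second library in each group.

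Most paralogs of the factors did not pass, nor did most tested genes, of which 8.93% were called higher and 8.11% lower in edgeR. A difference between paralogs and other genes was not tested. Trp53 stood at a log2 fold change of -0.06 (SE 0.15) in edgeR (adjusted p 0.812). Trp73 stood at -1.85 (SE 1.01, 0.245), with 155 counts in Control 2 and 22, 18 and 18 in Control 1, DCKO 1 and DCKO 2. Of the CP2 genes related to the grainyhead family, Tfcp2l1 rose (2.54, SE 0.62, adjusted p 0.0476), though not with scaling to library totals or without Control 1 (0.173) or Control 2 (0.207), and Tfcp2 (0.10) and Ubp1 (0.04) did not pass. Among AP-2 genes, Tfap2a rose, while Tfap2b (0.54, adjusted p 0.270), Tfap2d (-1.59, 0.171) and Tfap2e (-2.45, 0.0639) did not pass. Among 15 tested KLF genes, Klf6 (1.78, SE 0.36) and Klf4 (1.45, SE 0.34), an epidermal barrier factor, rose, and the erythroid factor Klf1 fell by 2.51 (SE 0.40). These 3 calls were lost without Control 1 or Control 2, with edgeR adjusted p from 0.0917 to 0.273. Gata6, of endoderm, mesoderm and vessels, rose from 0.252 ± 0.0495 to 5.97 ± 0.978 CPM (4.54, SE 0.41, adjusted p 0.00761, 0.0508 without Control 2), while Gata2 had -0.42 (0.394). Among 3 tested ELF relatives, Elf2, the one of lowest p, had -0.23 (SE 0.16, adjusted p 0.349).

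The genes of the coactivators that LATS kinases restrain did not pass at the RNA level, and the level or activity of their proteins was not measured. Yap1 was at -0.24 on the log2 scale (SE 0.25, edgeR adjusted p 0.520) and Wwtr1, which encodes TAZ, at 0.25 (SE 0.16, 0.320), a size within the shift between scalings. Of their DNA-binding partners, Tead3 (1.34, SE 0.19, adjusted p 0.0152) and Tead1 (1.03, SE 0.20, 0.0288) rose, Tead4 had 1.98 (SE 0.56, 0.0641) and Tead2 had -0.43 (0.133). Vgll3, a TEAD cofactor, rose by 3.45 (SE 0.75, adjusted p 0.0353), mostly in DCKO 2, with 1111 counts against 268 in DCKO 1. Of 9 tested genes of this list 3 rose, and 0 passed in edgeR without Control 1 or without Control 2 (4 and 4 at an unadjusted p under 0.05); DESeq2 called 4 higher.

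Genes tied to p63 in epidermis rose in part. Of 18 such genes, 12 were tested and 9 rose, with a median log2 fold change of 2.85. Perp, a desmosomal protein and known p63 target, rose from 0.262 ± 0.0356 to 23.4 ± 2.38 CPM (6.46, SE 0.29, edgeR adjusted p 0.00320). Fras1, needed for skin adhesion and another p63 target, rose by 1.79 (SE 0.18, adjusted p 0.00806), though not without Control 1 (0.0541) or Control 2 (0.0513). The keratins of basal epidermis were barely present: Krt5 had 36 counts in DCKO 1 and Krt14 had 13 in DCKO 2, and both were at 0 in the other 3 libraries. The desmosomal cadherin genes Dsc3 and Dsg3 were at 0 in all 4. The summed level of the list was 475 and 484 CPM in the DCKO libraries, against 231 and 216 in Control. Without Control 1, 3 of 15 tested genes passed, and without Control 2 again 3.

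Of 18 epithelial genes tied to grainyhead factors, all tested, 14 rose and none fell, with a median of 3.53. Cldn4, a tight junction claudin controlled by GRHL2 in kidney and other epithelia, was counted 4 and 4 times in Control, against 355 and 552 times in DCKO (log2 fold change 7.34, SE 0.49, edgeR adjusted p 0.00596). The membrane proteases St14 and Prss8 rose by 5.61 (SE 0.39, adjusted p 0.00602) and 5.57 (SE 0.41, 0.00602). Cdh1, E-cadherin, held 361 and 254 counts in Control, against 3514 and 1575 in DCKO. Its higher DCKO library was DCKO 1, while that of Grhl2 and Grhl3 was DCKO 2. A link between the levels of these genes was not tested. The summed list had 222 CPM in DCKO 1 and 171 in DCKO 2, against 34.4 and 36.4 in Control. Without Control 1, 7 of 18 passed, and without Control 2, 4.

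Genes of simple epithelium and early surface ectoderm also rose. Of 12, 10 passed as higher, with a median of 6.53, or 6.24 when genes at 0 in Control were set to the bound that 3 counts per library allow. The ligand genes Wnt3 (-1.46, SE 0.38, edgeR adjusted p 0.0541) and Wnt7b (-2.10, SE 0.98, 0.187) of this list had lower values that did not pass. DESeq2 called 10 genes of the list higher and 1 lower. Wnt6, a ligand made by surface ectoderm, rose from 0.224 ± 0.0462 to 29.0 ± 1.56 CPM (7.01, SE 0.29, edgeR adjusted p 0.00280), Krt18 from 2.79 ± 0.444 to 69.0 ± 20.7 (4.63, SE 0.30, 0.00583) and Cdh3, P-cadherin, from 0.865 ± 0.342 to 57.0 ± 16.2 (6.05, SE 0.40, 0.00583). Of 10 periderm genes, 8 had 0 counts in both Control libraries and 7 had 0 in both DCKO libraries. The keratins of this list, Krt4, Krt6a, Krt13, Krt16 and Krt17, had 0 counts in both DCKO libraries. The 2 genes that could be tested both rose. Both passed the count filter only through DCKO, so neither could have been called lower. Gabrp was at least 134-fold higher, with 0 counts in Control and 389 and 173 in DCKO. Cldn23 was higher by 2.91 (SE 0.67, edgeR adjusted p 0.0412) on the log2 scale. The call of Cldn23 was lost without Control 1 (0.205), Control 2 (0.224) or DCKO 2 (0.0961).

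**Figure D4:**
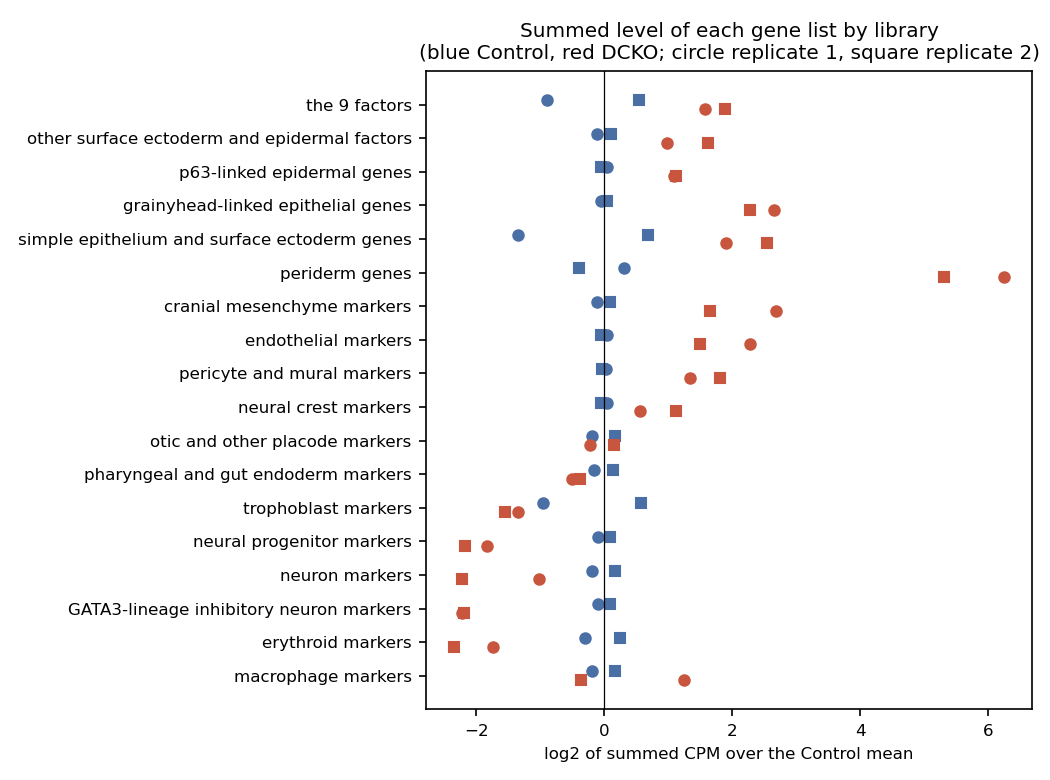
Summed CPM of each gene list in every library, as log2 over the mean of the 2 Control libraries, with Control in blue, DCKO in red, replicate 1 as a circle and replicate 2 as a square. The epithelial lists and those of mesenchyme and vessels lie to the right in DCKO, and neural and erythroid lists lie to the left.

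Markers of several other cell types also differed between the groups, some higher and some lower in DCKO. Of 12 cranial mesenchyme markers 10 rose, and their summed level went from 321 and 370 CPM to 2225 and 1091. Of 10 endothelial markers 7 rose, from sums of 189 and 177 CPM to 890 and 515. Of 8 pericyte and mural markers 5 rose and 1 fell. None of the markers of these 3 lists was at 0 in a whole group. Neural progenitor markers fell for 8 of 10, from summed levels of 1832 and 2070 CPM to 551 and 430, and neuron markers for 6 of 10, from 1019 and 1296 to 570 and 248. Among them, Sox3 went from 142 ± 3.84 to 18.9 ± 3.46 CPM (-2.91, SE 0.20, edgeR adjusted p 0.00602) and Neurog1 from 35.0 ± 1.25 to 1.81 ± 0.836 (-4.27, SE 0.37, 0.00734). Erythroid markers fell for 7 of 12, and 0 of 10 macrophage markers passed in edgeR (0 at an unadjusted p under 0.05) or DESeq2 (1). The macrophage sum was 79.4 CPM in DCKO 1 and 26.0 in DCKO 2, against 29.2 and 37.7 in Control, and 4 of these markers passed as higher without DCKO 2. Without Control 1 or without Control 2, the calls in edgeR went to 0 and 1 for mesenchyme (11 and 10 at an unadjusted p under 0.05), 1 and 0 for endothelium (9 and 8), and 3 and 1 for pericytes. They went to 4 and 4 for neural progenitors, 2 and 2 for neurons, and 5 and 1 for erythroid cells, while the median fold change of each of these 6 lists kept its sign. The part of these cell types in the differences of the 9 factors was not tested.

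Some other tissues use the same factors. Of 8 tested markers of the inhibitory neurons that express Gata3, 5 fell, and the summed level of the list went from 98.5 and 112 CPM to 22.6 and 23.1. Gata3 itself did not pass in edgeR (adjusted p 0.101), and its groups overlapped in TPM. The part of these neurons in the level of Gata3 was not tested. Tal1, which acts with GATA factors in these neurons and in blood, fell by 2.13 (SE 0.26, edgeR adjusted p 0.0117), though not without Control 1 (0.0537) or Control 2 (0.0858). Without those libraries 3 and 1 markers of this list passed. Of 9 tested otic and other placode markers, 1 rose and 2 fell, and summed levels of 103 and 133 CPM for Control and 102 and 132 for DCKO did not separate the groups. Of 9 tested neural crest markers, 2 rose and 1 fell, and the summed list had 114 and 107 CPM in Control against 163 and 242 in DCKO. Trophoblast, another tissue of Tfap2c and Gata3, had 5 of 12 markers at 0 in Control and 6 at 0 in DCKO, with sums of at most 16.8 CPM. Of its 3 tested markers 1 rose, Ascl2, a factor of trophoblast precursors (3.36, SE 0.64, edgeR adjusted p 0.0272), though not without Control 1 (0.164) or Control 2 (0.103). Of 12 pharyngeal and gut endoderm markers, 7 were tested, 3 rose and 1 fell, with summed levels of 29.5 and 36.1 CPM for Control and 23.1 and 25.3 for DCKO. In the placode, neural crest and endoderm lists 0 markers passed in edgeR without Control 1 or without Control 2 (from 4 to 6 per list at an unadjusted p under 0.05).

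The authors' deposited table of differential expression lists 4 of the 9 factors. It gives Trp63 a log2 fold change of 8.90 with a false discovery rate of 5.21e-42, Klf5 1.87 with 0.000222, Gata3 1.25 with 0.0337 and Tfap2c 0.05 with 0.966. In the authors' deposited table Gata3 thus passes a rate of 0.05, which it did not in the fit to the counts here. Of the 12574 genes of the authors' deposited table, 12178 had the same sign in that fit.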

How the data were processed

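RNA of microdissected cranial neural tubes was sequenced with a stranded kit, per the labels' protocols. The authors deposited a table of unscaled read counts per Ensembl gene, a table of TPM, and a table with log2 fold changes, p-values and false discovery rates. Builds mm10 and GRCm38 and the tools R 3.3.2, limma 3.30.13, edgeR 3.16.5, StringTie and TopHat2 2.1.1 are named in the submitters' processing notes. Their roles, and whether counting used strand, are not given in the sources used here. Symbols and coordinates are GENCODE M21 on GRCm38, and 54409 of 54532 IDs matched.

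Counts were tested with edgeR 4.0.16 in R 4.3.3 (quasi-likelihood test after TMM scaling, with group as the only term and 2 residual degrees of freedom; filterByExpr kept genes at a count of 10 and a total of 15). Benjamini-Hochberg adjustment ran over all 19207 tested genes, at a threshold of 0.05, two-sided. SE is the fold change over the root of F. Each group has n = 2 libraries. Counting intervals are exact, from the binomial distribution at 95%, and cover counting error only. A floor of 3 counts is 0.0479 to 0.0812 CPM. A tested gene at 0 in Control has its bound computed from this floor per library. Tested genes at or near 0 in both Control libraries passed the filter only through DCKO, so they could only be called higher.

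The members and lists were chosen with earlier results of these data known. Named genes are the 9 factors, up to 3 called genes per list by p-value, or the lowest p where none passed, LATS, YAP, TAZ and TEAD genes, and the 6 nearest profiles among genes without Gm or Rik names and of mean log2 CPM of at least 1 (prior count 2); others were named after their values were seen. Some genes that meet this rule are not reported here. Alternatives were other scalings, no filter, DESeq2 1.42.0, limma-voom and limma 3.58.1 on TPM with pseudocounts of 1 and 0.1, each library left out and a replicate block. Leaving out the ribosomal cluster or chromosome X genes was added after seeing the data. The fits were tested on simulated data.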

Additional observations from a re-analysis of the deposited data

How the results depend on the processing

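In edgeR, 3 of the 9 factors passed, and this number was 5 in DESeq2, 0 on unfiltered log2(TPM + 1), and 1 to 6 when single libraries were left out; 1 (Trp63) passed without either Control and 6 without DCKO 1. Over all genes, 3274 passed, against 4963 with scaling to library totals (1219 higher, 3744 lower), 5196 in DESeq2, 0 on unfiltered log2(TPM + 1), where 6446 genes and 4 of the factors had an unadjusted p under 0.05, and 227 to 5184 with a library left out. On log2(TPM + 1) with a mean TPM of at least 1, 1007 genes were higher and 1700 lower. Only 5 factors were left in that fit and 2 of them passed, Trp63 and Klf5 but not Grhl3. Of 237 listed genes outside the 9, 108 passed, against 0 on unfiltered log2(TPM + 1) and 27 to 135 with a library left out. Fits without a Control take their spread from the DCKO pair, which is less alike than the Control pair (Spearman's rho 0.966 against 0.983 over genes). Tfap2c changed sign with scaling to library totals (-0.33), without a filter (-0.012) and in 2 of the fits without a library (-0.84 and -0.36, in a range of -0.84 to 2.25); the cause was not tested. Of 127 values of single factors under an alternative, 104 kept direction and side of the threshold, 12 lost and 7 gained a pass. With the replicate number as a block, 1778 genes and again 3 factors passed (Grhl2 at adjusted p 0.0402 in place of Grhl3 at 0.0543); deviations of same-numbered libraries had a correlation of -0.04 over genes and the labels give the numbers no meaning, so they are not taken to pair the samples. Trp63, Grhl1, Grhl2, Grhl3 and Ovol1 had fewer than 30 counts in a Control library; the part of depth in their spread was not tested.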
